A study of Homo sapiens with 24 samples.

Results

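GATA1TSS-Guide2 (Guide2 below) is the stronger of 2 single guide RNAs (sgRNAs) aimed at the GATA1 start, and it was compared with 4 control libraries. These 7 libraries, 3 with Guide2 and 4 controls, are part of a series of 24 libraries made with 8 sgRNAs. All 7 came from K562, a human erythroleukaemia line in which a nuclease-dead Cas9 joined to the KRAB repressor domain is made from a doxycycline-inducible promoter (CRISPR interference, CRISPRi). Every culture, controls included, was transduced with 1 sgRNA and given doxycycline for 24 hours, and polyA RNA was sequenced from 10000 lysed cells. The targeted libraries are Guide2 replicates 1, 2 and 3. The controls are replicates 2 and 3 of NC-Guide3 and replicates 2 and 3 of NC-Guide4, which carry non-targeting sgRNAs. The labels call the 3 replicates of each sgRNA biological. Guide2 was chosen by its low GATA1 level, and the 4 controls were selected among 12 because their overall expression state was closest to that of the targeted libraries. Both choices used measured values, so the GATA1 level is given as a description with no test, and the adjusted p-values below hold for this choice of controls. Values against the other 8 control libraries (NC-Guide1 and NC-Guide2, all replicates, with replicate 1 of NC-Guide3 and NC-Guide4) are given where they bear on a result. The targeted arm is a single sgRNA, so what belongs to that sgRNA and what belongs to GATA1 cannot be told apart in this comparison.

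GATA1 is a zinc finger transcription factor that binds GATA motifs in promoters and enhancers of erythroid and megakaryocyte genes. It works with partners such as TAL1, LDB1, LMO2 and the cofactor encoded by ZFPM1, and among its known targets are genes for globins, heme enzymes, the red cell membrane and the factor KLF1. It also restrains genes of other blood lineages and of early progenitors, among them those driven by the myeloid factor PU.1 (SPI1). K562 cells are arrested at an erythroid stage with megakaryocyte traits and express embryonic and fetal globins.

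The Guide2 libraries held 23205811, 4290343 and 20625672 counts, and the 4 controls held 13407605 to 15629571. Replicate 2 of Guide2 was the shallowest library of the series. It stood apart from its group on the first principal component of the 7 libraries (46.4% of the variance), at -45.7 against -8.58 and -9.48 for the other 2, while the controls lay between 12.8 and 21.5. Where the call of a gene whose value is given was lost without it, this is said, and some list counts are given both ways. K562 markers were present in all 7 libraries: the 7 of 8 listed markers that could be measured summed to 5840 to 6660 CPM with Guide2 and to 7400 to 8470 CPM in the controls. Levels are CPM, the counts per 1000000 of a library's scaled total, and have no correction for gene length, so they are compared between libraries and not between genes.

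Guide2 is directed at the start of GATA1 (chrX:48644982-48652717 on hg19, forward strand). The sgRNA's target sequence is not printed here. The 250 bases before the GATA1 start in RefSeq (GRCh38.p14, chrX:48786340-48786589, forward strand) are shown because this start is the one aimed at. No base is in capitals, since the window holds neither GATA motif, AGATAA or TGATAA, on either strand.
GATA1: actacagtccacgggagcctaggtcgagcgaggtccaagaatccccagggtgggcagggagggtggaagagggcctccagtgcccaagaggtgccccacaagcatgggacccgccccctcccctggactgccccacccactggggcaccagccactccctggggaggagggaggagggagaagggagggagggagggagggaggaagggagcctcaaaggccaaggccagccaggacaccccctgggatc

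GATA1 stood at 60.2, 42.1 and 57.0 CPM in Guide2 replicates 1, 2 and 3. In the matched controls it stood at 359, 371, 381 and 352 CPM, in the order NC-Guide3 replicates 2 and 3 and NC-Guide4 replicates 2 and 3, which is kept below. Every targeted library was far under every control, and the mean with Guide2 was 14.5% of the control mean. The other 8 controls ran from 280 to 394 CPM, so the GATA1 level did not separate the control sets. The second sgRNA for the same start, GATA1TSS-Guide1 (Guide1 below), left 130, 96.1 and 123 CPM, and the 6 libraries of the enhancer sgRNAs (eHDAC6) left 242 to 267 CPM. The fitted log2 fold change with Guide2 was -2.75 (standard error, SE, 0.11), and -2.64 without replicate 2.

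**Figure D1:**
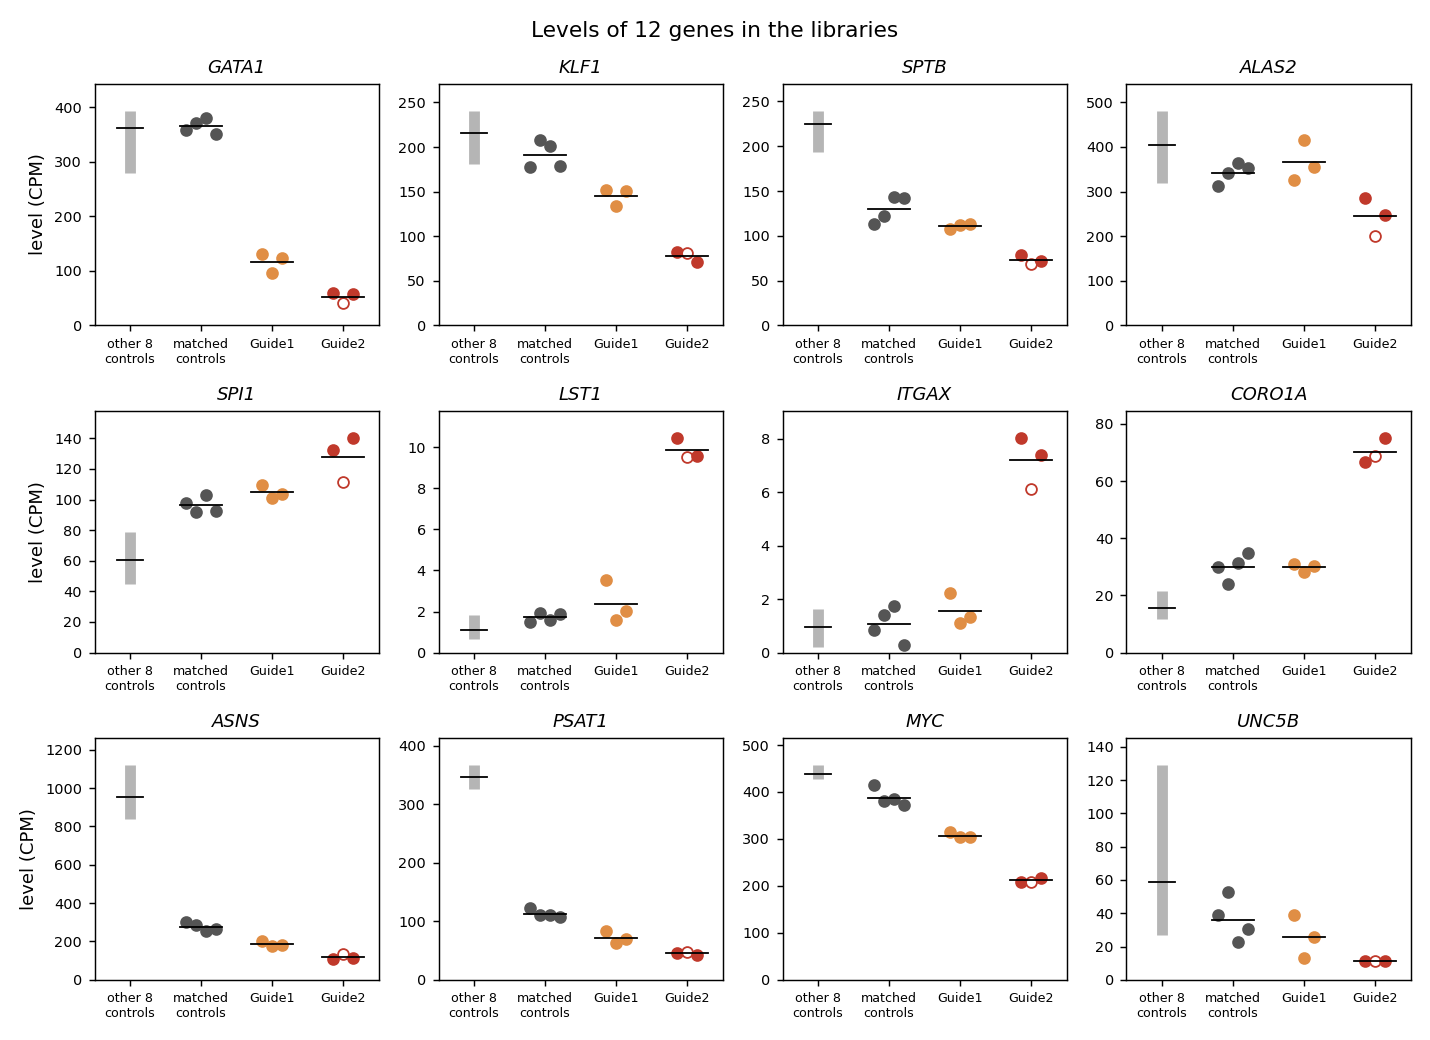
Level of 12 genes in CPM (vertical axes, from 0) in the matched controls, Guide1 and Guide2, 1 point per library, with a line at the mean. The open point is the shallow Guide2 replicate 2, and the grey bar spans the lowest to the highest of the other 8 controls with a line at their mean. GATA1 lies at 42.1 to 60.2 CPM with Guide2 and at 352 to 381 CPM in the matched controls, while ASNS differs more between the 2 control sets than between Guide2 and its matched controls.

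Of 12561 genes tested, 1635 (13.0%) differed between Guide2 and the 4 matched controls, 819 higher (6.52%) and 816 lower (6.50%), by edgeR's quasi-likelihood test at a Benjamini-Hochberg adjusted p under 0.05. Without replicate 2 there were 2006 calls, 996 higher (7.79%) and 1010 lower (7.90%), and 1495 of the 1635 (91.4%) were called again in the same direction. Leaving out Guide2 replicate 1 left 957 calls, and leaving out replicate 2 of NC-Guide3 left 1026. The 3 Guide2 libraries lay entirely above or below the 4 controls for 1587 of the called genes (97.1%), against 26.3% of all genes tested. The 2 directions had different shapes. Genes called higher had a median level of 23.9 CPM and a median log2 fold change of 0.60, whereas those called lower had 54.5 CPM and -0.47. At a log2 fold change of at least 1 there were 221 rises and 76 falls, and at 2 or more there were 41 and 10. Large rises were thus mostly those of weakly expressed genes: among those that averaged 5 CPM or higher, the counts at 2 or more were 5 and 3. These counts include genes that passed the low-count filter only through Guide2 (192 tested), which favours rises at low levels. Among the 12094 genes that passed in the matched controls alone, 746 were called higher and 816 lower. The counts of large rises and falls were not repeated for those genes. The median over all genes tested was 0.0008. Against the other 8 controls the same test called 2960 genes (23.1%), with 11.6% of genes higher and 11.5% lower. Of the 2960, 1088 were called the same way against the matched controls and 10 the opposite way.

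**Figure D2:**
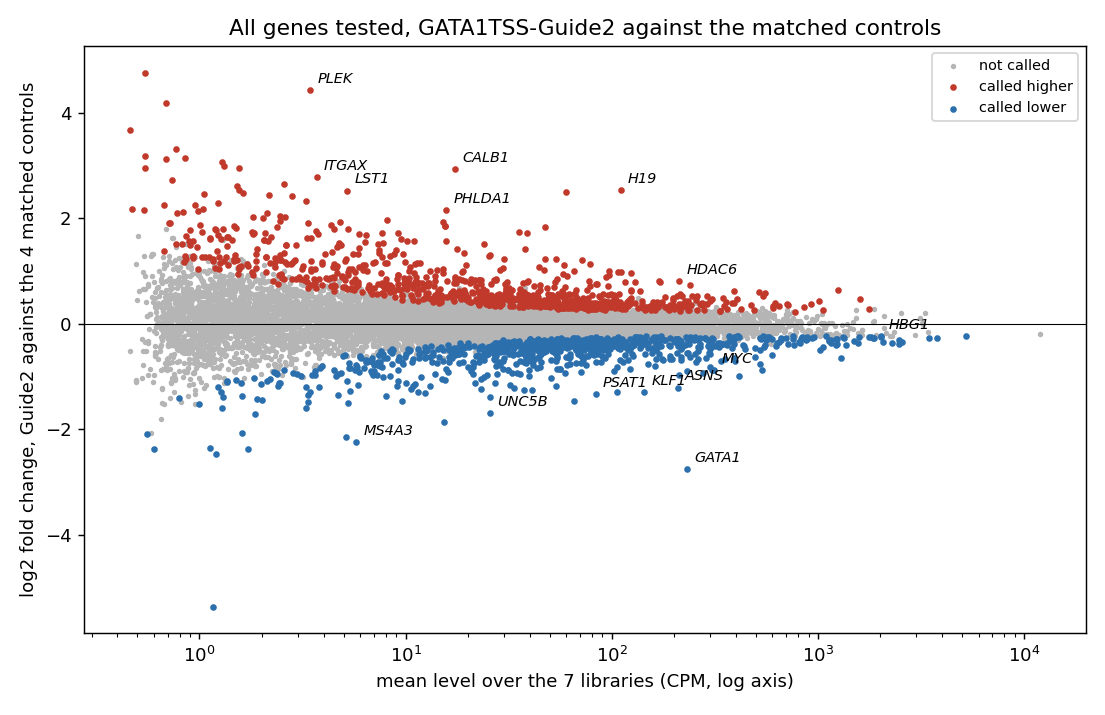
Log2 fold change of Guide2 against the 4 matched controls (vertical axis) by mean level over the 7 libraries in CPM (horizontal log axis), 1 point per gene tested. Red points were called higher (819 genes) and blue points lower (816), and the large rises sit at low levels while GATA1 is an isolated fall at a high level.

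Within 1 Mb of the GATA1 start, 68 of the 74 genes in the table were tested, 22 of them GAGE copies that are nearly identical to each other. With GATA1 left out, since it chose the sgRNA, 11 of 67 rose and 4 fell, and their median log2 fold change was 0.18. Of all genes tested, 6.52% were called higher and 6.50% lower, so the share of falls here lay near the background. The fall of a gene 316 kb away was not called without replicate 2 (adjusted p = 0.068 in edgeR). HDAC6, a cytoplasmic deacetylase gene 15.5 kb from the GATA1 start (chrX:48660487-48683380 on hg19), stood at 292, 252 and 300 CPM with Guide2 and at 146, 173, 160 and 165 CPM in the controls. The groups did not overlap, and Guide2 was higher by a log2 fold change of 0.81 (SE 0.08, adjusted p = 3.1e-05). It was also higher against the other 8 controls (0.63) and against Guide1 (0.31, adjusted p = 0.042 in edgeR's test of that difference). WAS, which encodes the actin regulator of blood cells mutated in Wiskott-Aldrich syndrome and starts 103 kb away, stood at 123, 138 and 137 CPM with Guide2. Its 4 controls lay between 68.3 and 71.2 CPM. The rise of 0.92 (SE 0.08, adjusted p = 4.9e-06) was as clear without replicate 2 (0.89). PCSK1N, 49.1 kb away, is 1 of the 11 but passed the low-count filter only through Guide2, with 1.36 to 2.17 CPM against 0.216 to 0.592 CPM in the controls. Without it 10 of 66 rose. MAGIX, 374 kb away, was the largest fall of the region after GATA1, from 21.9 to 41.1 CPM in the controls to 10.0 to 15.4 CPM (log2 fold change -1.24, SE 0.19). The transcription factor gene TFE3 rose by 0.35, and the kinase gene PIM2 by 0.45. Of the called neighbours, ZNF81, GLOD5, PQBP1, FTSJ1 and PIM2 were no longer called when all 12 controls were used, a test that called 7.17% of genes higher and 7.51% lower. PQBP1 and CCDC22 overlap antisense genes, and SSX3 and SSX6 belong to a family of near copies, which leaves these values uncertain.

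Some erythroid transcription factors and cofactors fell. The list also holds the receptor gene EPOR and the kinase gene JAK2. With GATA1 left out, 8 of 19 tested fell and none rose, with a median log2 fold change of -0.14, and without EPOR and JAK2 it was 6 of 17. Of all genes tested, 6.50% were called lower. KLF1, the erythroid Krüppel-like factor that drives adult globin and membrane genes, stood at 82.2, 81.4 and 71.3 CPM with Guide2. Its controls stood at 178, 208, 201 and 179 CPM. All 3 targeted libraries were far below every control (log2 fold change -1.29, SE 0.09, adjusted p = 1.0e-06), and the value was -1.46 against the other 8 controls. LDB1, the bridging partner that brings GATA1-bound enhancers to promoters, stood at 191, 190 and 178 CPM against 270, 357, 318 and 291 CPM. The groups were well apart (-0.73, SE 0.09, adjusted p = 0.00016). EPOR, the erythropoietin receptor, stood at 31.6, 22.3 and 27.4 CPM against 43.2, 47.5, 51.0 and 44.6 CPM, with no overlap (-0.74, SE 0.11, adjusted p = 0.00063). JAK2, the kinase that acts for this receptor, fell by 0.46. NFE2 (-0.43), KLF3 (-0.50) and KLF13 (-0.53) also fell. TAL1 was a marginal call at -0.32 (adjusted p = 0.034), and without replicate 2 it was not called (adjusted p = 0.056). ZFPM1 gave 0.15 and LMO2 0.13, neither called, and LMO2 was called lower against the other 8 controls (-0.24, adjusted p = 0.036).

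Among the genes of the erythroid lists called lower, 20 of 27 had an entry in RefSeq's promoter table (GRCh38.p14). That is too few to set their share of GATA motifs against the 17.5% of all genes in the table that hold AGATAA or TGATAA on either strand in the 250 bases before a start. The matches themselves are shown for 5 genes, with the motif, or its reverse complement TTATCT or TTATCA, in capitals and 30 bases on each side. CPOX also held matches and is not shown. A match is a description of these letters and not of a site in use. KLF1 (chr19:12887232-12887297, reverse strand) has its match 66 bases before the start, EPOR (chr19:11384357-11384422, reverse strand) 78, TAL1 (chr1:47232336-47232400, reverse strand) 35, SPTB (chr14:64879914-64879979, reverse strand) 42 and ALAS2 (chrX:55031069-55031134, reverse strand) 127. TAL1 is cut short by the start itself.
KLF1: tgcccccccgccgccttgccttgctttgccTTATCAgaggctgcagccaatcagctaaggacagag
EPOR: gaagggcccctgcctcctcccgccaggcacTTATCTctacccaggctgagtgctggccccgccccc
TAL1: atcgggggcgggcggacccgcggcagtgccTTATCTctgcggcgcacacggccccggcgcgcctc
SPTB: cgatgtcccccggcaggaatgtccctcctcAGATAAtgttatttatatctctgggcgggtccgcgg
ALAS2: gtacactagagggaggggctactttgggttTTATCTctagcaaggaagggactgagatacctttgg
The 5 genes shown fell by 0.32 to 1.29 on the log2 scale. All were taken from genes called lower, so these values cannot relate a match to a fall.

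Some genes of heme, iron and globin fell by small amounts, while most did not pass the test. In heme synthesis 4 of 11 tested enzymes and carriers fell and 1 rose, with a median of -0.28. For this list and those of iron and globin, the shares over all genes tested were 6.50% lower and 6.52% higher. ALAS2, the erythroid enzyme of the first step, stood at 286, 200 and 248 CPM with Guide2 against 313, 341, 364 and 353 CPM. The groups did not overlap, and replicate 2 was the lowest (-0.48, SE 0.10, adjusted p = 0.007). It was called again without that library at -0.36. CPOX (-0.32) and the mitochondrial glycine carrier gene SLC25A38 (-0.36) also fell. ALAD, which joins the first products of the pathway, went the other way, from 30.4 to 35.0 CPM in the controls to 51.1, 39.3 and 51.1 CPM (0.54, SE 0.10, adjusted p = 0.0031). Of 12 iron genes, 6 fell and 1 rose, with a median of -0.27, and without replicate 2 4 fell and 1 rose. BLVRB, a reductase of heme breakdown, stood at 399, 336 and 397 CPM against 594, 605, 548 and 580 CPM, a wide gap (-0.62, SE 0.08). The endosomal iron reductase gene STEAP3, which an antisense gene overlaps, fell by 0.58. HFE, which tunes iron sensing, rose by 0.92 at 6.46 to 9.10 CPM. Of 10 globin genes and their chaperone gene, 2 fell and none rose. HBE1 (embryonic epsilon globin) stood at 1966, 1611 and 1743 CPM against 2077, 2478, 2232 and 2287 CPM. The highest targeted library was still under the lowest control (-0.36, SE 0.08, adjusted p = 0.011). HBG1 (fetal gamma globin) was called at -0.23, but not without replicate 2 (adjusted p = 0.066), and HBG1 and HBG2 share nearly all their sequence. Against the other 8 controls, in which HBE1 ran from 3138 to 3946 CPM, 9 of the 10 fell. That test called 11.5% of all genes lower.

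Of 25 tested genes of the red cell membrane and blood groups, 6 fell and none rose, with a median of -0.15, while 6.50% of all genes tested were called lower. SPTB, the beta spectrin of the membrane skeleton, stood at 78.2, 68.2 and 72.2 CPM with Guide2 and at 113, 122, 143 and 142 CPM in the controls. The groups were well apart (-0.83, SE 0.10, adjusted p = 0.0001). BCAM (-0.87), ACHE (-0.83), TMOD1 (-0.55), GYPC (-0.48) and AQP1 (-0.42) were the other falls. AQP1 was marginal (adjusted p = 0.049) and was not called without replicate 2 (adjusted p = 0.066). Without that library 6 of the list fell and 2 rose, the blood group gene KEL (0.34) and RHAG (0.24), both named here after their values were seen and both called lower against the other 8 controls. TMOD1, the cap of the skeleton's actin filaments, is overlapped by an antisense gene, and BCAM and ACHE stood under 8 CPM. The anion exchanger gene SLC4A1 gave -0.02 and was not called. The count moved with the choice of controls: 22 of the 25 fell against the other 8 controls, a test that called 11.5% of all genes lower. SPTB was itself higher in those 8 than in the 4 by a log2 fold change of 0.79, in cells that carry non-targeting sgRNAs alone. In bulk RNA, fewer cells of a kind and less RNA per cell cannot be told apart.

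Some genes of early progenitors and of other blood lineages rose. Among progenitor factors 5 of 9 tested rose and none fell, with a median of 0.28, while 6.52% of all genes tested were called higher. MEIS1, a homeobox factor of stem and progenitor cells, stood at 25.9, 35.0 and 29.7 CPM with Guide2 and at 18.7, 18.1, 19.7 and 18.4 CPM in the controls. The groups did not overlap (0.66, SE 0.12, adjusted p = 0.0019). SPI1, which encodes PU.1, stood at 132, 111 and 140 CPM against 97.8, 91.6, 103 and 92.5 CPM (0.42, SE 0.09, adjusted p = 0.0061). Its lowest targeted library, replicate 2, was only a little above the highest control. Between the control sets, SPI1 was lower in the other 8 than in the matched 4, by 0.68 on the log2 scale. The stem cell factor receptor KIT rose by 0.60, but not against all 12 controls (0.31, adjusted p = 0.35). ETV6 and CBFB rose by 0.37 and 0.28. GATA2, the GATA factor of progenitors that GATA1 is known to replace, stood at 240, 221 and 242 CPM against 269, 293, 276 and 243 CPM and was not called (-0.20, SE 0.08, adjusted p = 0.11). The lowest control and the highest targeted library were about equal. Against the other 8 controls, which ran from 166 to 212 CPM, GATA2 was called higher (0.30, adjusted p = 0.011), so its direction rests on the choice of controls.

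Myeloid genes of the list moved more. MS4A3 and TCN1, which are not in the list, fell against the matched controls and are described with the largest falls. Of 24 listed, 23 were in the table and 16 were tested, and 12 of these rose and none fell, with a median of 0.82. MNDA and CEBPE passed the low-count filter only through the Guide2 libraries and are part of this median. Of the 14 that passed in the matched controls alone, 11 rose, while 6.52% of all genes tested were called higher. LST1, a leukocyte transcript that an antisense gene overlaps, stood at 10.5, 9.55 and 9.59 CPM with Guide2 and at 1.49, 1.93, 1.59 and 1.88 CPM in the controls. All 3 targeted libraries were several times above every control (2.53, SE 0.18, adjusted p = 1.4e-06). ITGAX, the CD11c integrin of monocytes and dendritic cells, stood at 8.05, 6.14 and 7.41 CPM against 0.844, 1.41, 1.73 and 0.300 CPM, again with a wide gap (2.78, SE 0.32, adjusted p = 7.3e-05). EVI2B, a leukocyte membrane protein gene, rose from 11.8 to 15.3 CPM in the controls to 33.1, 48.9 and 33.0 CPM (1.51, SE 0.15), with replicate 2 the highest and a value of 1.34 without it. AIF1, an actin binding protein of macrophages, rose by 1.06 (SE 0.14) and TYROBP, the adaptor of myeloid receptors, by 0.98 (SE 0.17). The integrin gene ITGAM rose by 1.32, from 2.29 to 4.16 CPM to 6.84 to 10.2 CPM. Against the other 8 controls 14 of the 16 rose, in a test that called 11.6% of all genes higher. MNDA and CEBPE were not left out of that count. Some of these genes also separated the 2 control sets. EVI2B was lower in the other 8 than in the matched 4 by 1.15 (adjusted p = 3.1e-05 in edgeR), and TYROBP by 0.74. LST1 (-0.62), ITGAX (-0.15) and ITGAM (0.33) were not called between the sets. Whether the expression state that divides the controls also set these rises was not tested.

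Of 25 lymphocyte genes, 24 were in the table and 11 were tested, of which 7 rose and none fell, with a median of 1.08. CD3G, CD4 and NKG7 passed the filter only through Guide2 and are part of this median, and 5 of the other 8 rose. Over all genes tested, the share called higher was 6.52%. Against the other 8 controls 8 of the 11 rose, in a test that called 11.6% of all genes higher. CD3G, CD4 and NKG7 were not left out of that count. CORO1A, a coronin of the leukocyte actin cortex, stood at 66.6, 68.9 and 75.2 CPM with Guide2 against 29.9, 24.0, 31.4 and 34.7 CPM (1.23, SE 0.11, adjusted p = 9.2e-06). The targeted libraries were close together and well above the controls. SLAMF6, a receptor of lymphocytes, stood at 16.1, 20.0 and 17.5 CPM against 6.04, 4.66, 6.42 and 6.45 CPM, without overlap (1.57, SE 0.15, adjusted p = 1.3e-05). PTPN22, a phosphatase of lymphocyte signalling with an antisense overlap, rose by 1.73 (SE 0.21). CD3D, a chain of the T cell receptor complex, stood at 44.4, 33.6 and 42.3 CPM against 18.1, 9.62, 28.0 and 25.2 CPM. The controls were widely spread, and the call (1.01, SE 0.24, adjusted p = 0.011 in edgeR) was lost with DESeq2's test (adjusted p = 0.073). CORO1A and SLAMF6 were lower in the other 8 controls than in the matched 4, by 0.96 and 0.98 on the log2 scale. PTPN22 (0.14) and CD3D (0.21) were not called between the control sets.

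Defining markers of mature blood cells were measured beside these genes. T cell markers (CD3D, CD3E and CD8A) summed to 34.6 to 45.1 CPM with Guide2 and to 9.62 to 28.4 CPM in the controls, nearly all of it CD3D, and CD8A was at 0 in every targeted library. MS4A1, a marker of B cells, was also at 0 in the targeted libraries. The T cell sums did not overlap between the groups. Monocyte markers (CD14, CSF1R and LYZ) summed to 89.1 to 114 and 62.5 to 79.2 CPM. These did not overlap either. LYZ made up nearly all of this, and CD14 reached at most 0.0417 CPM with Guide2. Neutrophil markers (MPO, ELANE and CSF3R) summed to 6.37 to 10.6 and 4.18 to 7.48 CPM, with MPO at most 0.095 CPM with Guide2. The defining markers CD8A, MS4A1, CD14 and MPO were thus at or near 0 in the libraries in which the leukocyte genes were high.

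Genes of the actin cytoskeleton and integrins rose in 9 of 24 tested cases and fell in 1 (CAPG), with a median of 0.22. Without replicate 2, 12 rose and 2 fell. Of all genes tested against the matched controls, 6.52% were called higher and 6.50% lower. ARHGAP9, a GTPase activating protein gene of blood cells that overlaps GLI1, stood at 38.9, 35.9 and 40.1 CPM with Guide2 against 15.4, 15.5, 17.0 and 15.0 CPM. The targeted libraries were close together and far above the highest control (1.29, SE 0.10, adjusted p = 2.3e-06). Between the control sets, ARHGAP9 was lower in the other 8 than in the matched 4, by 1.07 on the log2 scale. ITGA6, a laminin receptor chain, rose by 1.5 (SE 0.30) and TPM4, a tropomyosin, by 0.80. Of 15 immediate early genes 5 rose and none fell, with a median of 0.33. IER5 stood at 157, 146 and 164 CPM against 102, 93.0, 105 and 98.9 CPM, far apart (0.64, SE 0.08, adjusted p = 0.00011). EGR1, a factor induced by growth signals, rose by 1.23 from a spread of 21.3 to 53.6 CPM in the controls, but it was not called against all 12 controls (0.79, adjusted p = 0.071). Of 7 tested megakaryocyte and platelet genes, 6 passed the filter in the matched controls, and 1 of these rose. The seventh, PLEK (pleckstrin, a platelet and leukocyte substrate of protein kinase C), passed only through Guide2 and had to differ, so it is given with no test. It stood at 7.21, 8.41 and 7.17 CPM with Guide2 and at 0.390, 0.222, 0.288 and 0.450 CPM in the controls, 22.5 times higher by the means. GP6, the platelet collagen receptor, was the rise (0.85). The platelet integrin gene ITGA2B gave -0.03 and ITGB3 -0.28, neither called.

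**Figure D3:**
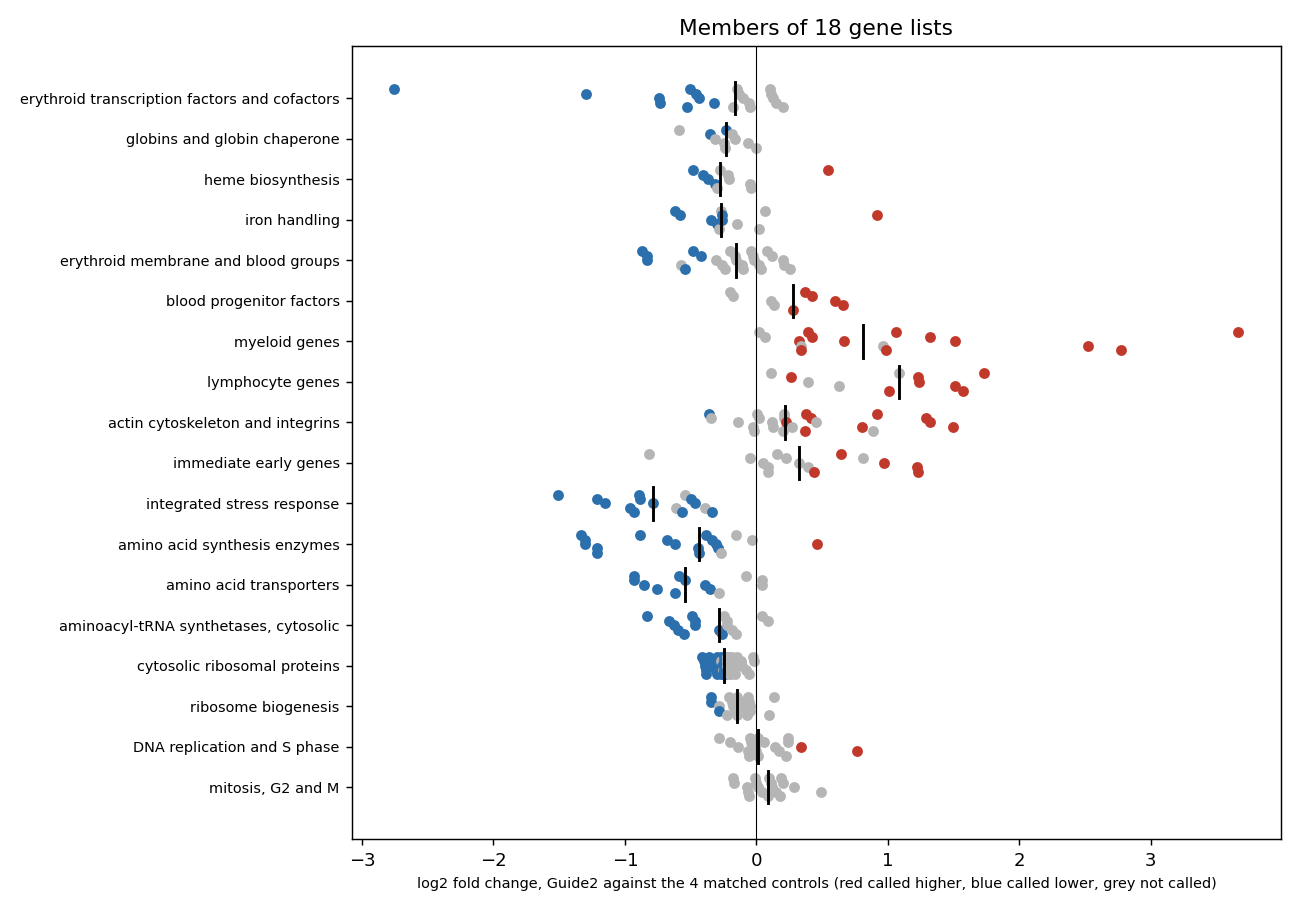
Log2 fold change of Guide2 against the 4 matched controls (horizontal axis) for the tested members of 18 gene lists, 1 point per gene, with a black bar at the list median. Red points were called higher, blue points lower and grey points were not called. Myeloid genes have a median of 0.82 with 12 of 16 called higher, or 11 of the 14 that passed the low-count filter in the matched controls alone. Integrated stress response genes have a median of -0.79 with 12 of 15 called lower. Over all genes tested, 6.52% were called higher and 6.50% lower.

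The largest rises among genes of at least 5 CPM were led by CALB1, which encodes the calcium buffer calbindin and is not a blood lineage gene. It stood at 35.6, 34.6 and 33.6 CPM with Guide2 and at 3.70, 5.78, 4.97 and 3.75 CPM in the controls. The targeted libraries were close to each other and several times above the highest control (2.93, SE 0.15, adjusted p = 3.7e-08). H19, an imprinted noncoding RNA, stood at 192, 240 and 196 CPM against 27.4, 12.3, 63.6 and 40.2 CPM (2.54, SE 0.32, adjusted p = 0.00015). The controls were widely spread among themselves, but all lay far below. HOTS lies antisense to H19 and gave 2.49, a value that cannot be separated from that of H19 where counting ignored strand. PHLDA1, a pleckstrin homology domain gene, stood at 26.5, 31.1 and 27.0 CPM against 6.30, 4.52, 6.92 and 7.28 CPM, a wide gap (2.15, SE 0.15, adjusted p = 1.0e-06). MMRN2 (1.98), which encodes an endothelial matrix protein, and EPHB6 (1.74), a kinase-dead ephrin receptor, were also among them. TMEM158 rose from 18.7 to 28.6 CPM to 85.1, 65.9 and 88.8 CPM (1.84, SE 0.14). LINC00891 and LOC100132741 have identical counts and rose by 1.85, and are counted as 1 measurement here. SOSTDC1, a secreted antagonist of BMP signalling, stood at 62.2, 66.8 and 65.0 CPM against 24.2, 19.7, 18.1 and 16.3 CPM (1.72, SE 0.12, adjusted p = 9.9e-07), with tight targeted libraries.

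COL1A1, a collagen chain, rose by 1.93 (SE 0.16), from 4.68 to 7.86 CPM to 26.9, 28.6 and 23.4 CPM. Its rise against the other 8 controls, which ran from 8.46 to 19.4 CPM, was 0.79. Fibroblast markers (COL1A1, COL1A2 and DCN) summed to 23.5 to 29.1 CPM with Guide2 and to 5.13 to 8.07 CPM in the controls. COL1A2 reached at most 0.125 CPM and DCN 0.455 CPM with Guide2, so the sum was nearly all COL1A1. PLAU and its receptor gene PLAUR rose by 0.82 and 0.68, and PLAU overlaps an antisense gene. EPCAM fell by 0.42 and KRT8, whose exons overlap KRT18 in the table, rose by 0.58. Epithelial markers (EPCAM, CDH1 and KRT19) summed to 331 to 395 and 303 to 351 CPM, with CDH1 at most 0.292 CPM with Guide2.

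Genes of the amino acid response fell. In the integrated stress response, cells that lack amino acids or carry unfolded proteins raise the factor ATF4, which binds CARE elements (TGATGNAA) and drives genes for amino acid synthesis, uptake and tRNA charging. ATF4 itself was not analysed here. Of 15 tested genes of this response 12 fell and none rose, with a median of -0.79. Of 18 amino acid synthesis enzymes 14 fell and 1 rose (GLUL, glutamine synthetase, by 0.46), with a median of -0.44. Of 13 amino acid transporters 9 fell, with a median of -0.55, and of 17 cytosolic aminoacyl-tRNA synthetases 10 fell, with a median of -0.28. For these 4 lists, the shares over all genes tested were 6.50% lower and 6.52% higher.

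ASNS, asparagine synthetase, stood at 109, 136 and 115 CPM with Guide2 and at 299, 285, 253 and 265 CPM in the matched controls. The groups were far apart (-1.21, SE 0.09, adjusted p = 2.2e-06). PSAT1, of serine synthesis, stood at 45.4, 48.0 and 41.7 CPM against 122, 111, 110 and 106 CPM, also without overlap (-1.33, SE 0.09, adjusted p = 7.9e-07). PHGDH, which starts that pathway, fell by 1.30 (SE 0.12) and the mitochondrial enzymes GPT2 and ALDH1L2 by 1.30 and 1.21. CHAC1, a glutathione degrading enzyme induced by this response, stood at 2.00, 3.18 and 2.85 CPM against 8.51, 6.0, 8.07 and 6.15 CPM (-1.51, SE 0.23, adjusted p = 0.00051). Every targeted library was well under the lowest control. Among transporters, SLC7A5, the large neutral amino acid carrier, stood at 176, 168 and 200 CPM against 348, 327, 370 and 339 CPM (-0.93, SE 0.08, adjusted p = 7.8e-06), with no overlap. SLC7A11, the cystine carrier, gave 31.1, 58.0 and 32.4 CPM against 62.4 to 82.4 CPM. Replicate 2 lay close to the controls, and the fall was 0.93 with it and 1.20 without it. WARS and GARS, which charge tryptophan and glycine tRNAs, fell by 0.83 and 0.67.

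CARE matches were looked for on both strands in the 250 bases before each start in the same RefSeq table. Of 42 genes of these 4 lists called lower, 34 had an entry, and 10 of the 34 held a match, against 3.89% of all genes in the table. The lists hold known ATF4 targets and were put together for that, so this share describes the lists and not the fall. Shown are the matches of 4 of the genes whose values are given, with TGATGNAA or its reverse complement TTNCATCA in capitals and 30 bases on each side. ASNS (chr7:97872439-97872506, reverse strand) has its match 68 bases before the start, CHAC1 (chr15:40953232-40953299, forward strand) 209, AARS (chr16:70289656-70289723, reverse strand) 187 and HERPUD1 (chr16:56931936-56932003, forward strand) 176.
ASNS: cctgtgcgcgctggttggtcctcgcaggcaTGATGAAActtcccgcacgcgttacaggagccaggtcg
CHAC1: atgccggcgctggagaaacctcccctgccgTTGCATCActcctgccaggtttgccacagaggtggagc
AARS: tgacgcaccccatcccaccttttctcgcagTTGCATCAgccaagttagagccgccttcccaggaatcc
HERPUD1: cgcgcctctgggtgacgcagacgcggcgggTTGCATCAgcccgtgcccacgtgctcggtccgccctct
AARS, which charges alanine tRNA, fell by 0.60 and HERPUD1, of endoplasmic reticulum protein degradation, by 0.79.

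These same genes separated the 2 sets of controls. ASNS ran from 840 to 1121 CPM in the other 8 controls, a log2 difference of 1.78 from the 4 matched controls in edgeR's test (adjusted p = 5.6e-11), and PSAT1 differed by 1.61. Both sets carry non-targeting sgRNAs alone, and their difference was larger than that between Guide2 and the matched controls. Against the 8, Guide2 was lower by 2.99 for ASNS and 2.95 for PSAT1. In the test against Guide1, whose spread was estimated over all 24 libraries, Guide2 was lower by 0.65 for ASNS (SE 0.08, adjusted p = 7.6e-06) and by 0.69 for PSAT1 (SE 0.09, adjusted p = 2.6e-05). In edgeR's fit of the 6 GATA1 libraries alone, the differences were the same size, with adjusted p = 0.0027 for ASNS and 0.0044 for PSAT1. Whether the expression state that divides the controls also set these falls was not tested.

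MYC, the transcription factor that drives ribosome production and cell cycle entry, stood at 209, 208 and 217 CPM with Guide2 and at 415, 380, 385 and 373 CPM in the matched controls. The targeted libraries were nearly equal, and their mean was 54.5% of the control mean (-0.88, SE 0.07, adjusted p = 4.3e-06). Its paralog MYCL fell by 0.83 (SE 0.10). The antagonist MXD1 fell by 0.45, but not against all 12 controls. All 47 tested genes of cytosolic ribosomal proteins had a log2 fold change under 0, with a median of -0.24 and a lowest value of -0.41. Of these, 23 were called lower, 39 without replicate 2 and 22 against the other 8 controls, while 0 of the 47 were called in the edgeR test against Guide1. The shares of all genes called lower in these 4 tests were 6.50%, 7.90%, 11.5% and 3.38%. RPS16 stood at 1070, 916 and 1092 CPM against 1432, 1376, 1262 and 1387 CPM (-0.41, SE 0.08, adjusted p = 0.0031), without overlap. RPS12 fell by 0.38. Reads of ribosomal protein genes can be shared with their many processed copies, so single values are uncertain. Of 21 ribosome biogenesis genes 3 fell (NOLC1, POLR1B and DDX21, by 0.28 to 0.35), while 6.50% of all genes tested were called lower. NOLC1 and POLR1B were not called against all 12 controls or the other 8. Of 13 host genes of small nucleolar RNAs 5 fell, with a median of -0.27.

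The proliferation lists moved little. No gene of 19 tested for mitosis was called (without replicate 2, 1 rose and 1 fell), with a median of 0.09, and of 19 replication genes 2 rose (CCNE2 and UHRF1) with a median of 0.01. CCND2, the D cyclin, stood at 41.6, 51.4 and 48.6 CPM against 87.0, 92.7, 93.6 and 81.0 CPM (-0.92, SE 0.10, adjusted p = 3.0e-05), with no overlap, and it has an antisense neighbour. CCND3 and the inhibitor gene CDKN2C rose by 0.39 each, and CDK4 fell by 0.27. Of 16 p53 target genes 1 rose and 2 fell, and of 15 interferon response genes only TRIM22 was called (1.51, SE 0.17). Of 24 nuclear genes of the respiratory chain 1 fell, of 21 for glycolysis and glucose transport 2 rose (SLC2A3 by 0.53 and PKM by 0.42), of 17 for cholesterol synthesis 1 rose and of 14 chaperones 1 fell. These shares lie near or under the background of 13.0% called in either direction, except those of the D cyclins with CDK inhibitors, 4 called of 10. The p53 targets, with 1 rise and 2 falls of 16, lay somewhat above that background. Without replicate 2, 3 of the chaperones fell. The respiratory chain fall was then not called (adjusted p = 0.07 in edgeR), though another gene of that list was.

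The largest falls were of 2 kinds. AMHR2, a receptor of the TGF-beta family, stood at 38.5, 22.7 and 33.3 CPM with Guide2 and at 84.5, 109, 88.7 and 82.3 CPM in the controls (-1.47, SE 0.14, adjusted p = 1.3e-05). The groups were well apart, and it fell against the other 8 controls too (-0.94). UNC5B, a netrin receptor, stood at 11.2, 11.4 and 11.2 CPM against 38.6, 52.8, 22.6 and 30.7 CPM (-1.69, SE 0.23, adjusted p = 0.00022). The targeted libraries were almost the same while the controls were widely spread. RAB3IL1, an exchange factor for Rab GTPases (-1.26), and SERINC2 (-1.37) fell against both control sets. MS4A3, a gene of basophil and granulocyte precursors, stood at 2.08, 1.36 and 1.76 CPM against 10.0, 13.0, 5.26 and 6.83 CPM (-2.24, SE 0.31, adjusted p = 0.00026). The other 8 controls, however, ran from 1.73 to 6.31 CPM, and against them MS4A3 was not called (-0.53, adjusted p = 0.31). TCN1, a vitamin B12 binding protein of granules, fell by 2.16 against the matched controls but gave 0.38 against the other 8, and LRRTM1 (-1.47 and 0.35) and CPZ (-1.86 and -0.64) were likewise called against the matched controls only. ANKRD33 was called lower against the 4 (-1.38, adjusted p = 0.0031) and higher against the 8 (0.74, adjusted p = 0.0073). For these 5 genes the direction or the call rests on which control libraries are used, and none was called against all 12.

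**Figure D4:**
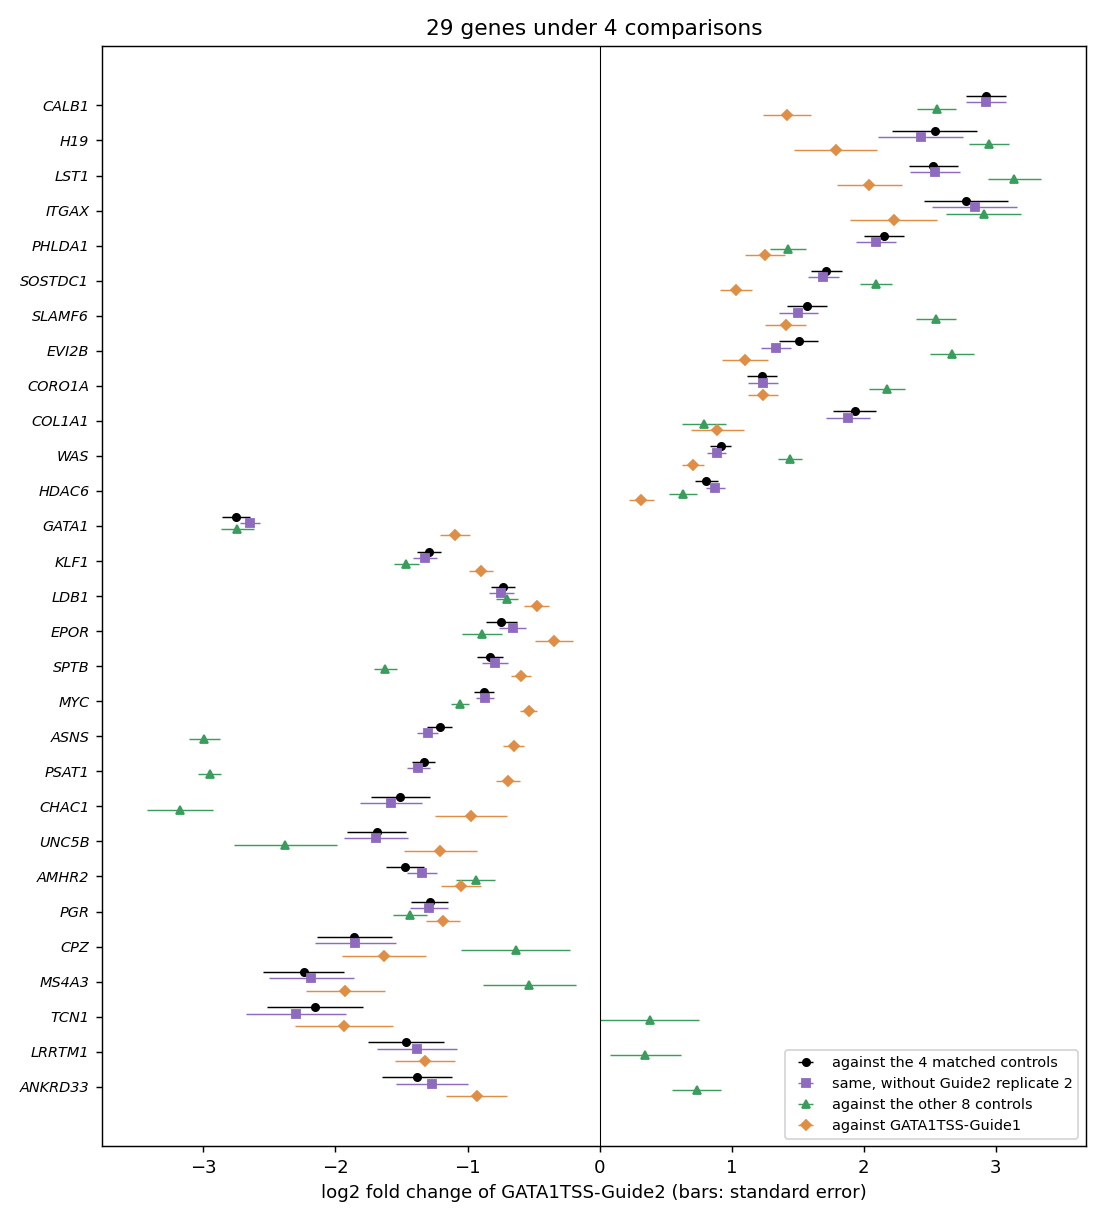
Log2 fold change of Guide2 with its standard error (horizontal axis) for 29 genes under 4 comparisons: against the 4 matched controls, the same without Guide2 replicate 2, against the other 8 controls, and against Guide1. TCN1 (0.38), LRRTM1 (0.35) and ANKRD33 (0.74) change sign against the other 8 controls, and the other genes shown keep their side of 0 in all 4.

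The direct comparison with Guide1 asked where the stronger sgRNA for the same start differed from the weaker. Over 13147 genes in a fit of all 24 libraries, 876 (6.66%) differed, 431 higher with Guide2 (3.28%) and 445 lower (3.38%). When only the 6 libraries were fitted, 583 were called. Guide1 itself differed from the same 4 controls at 28 of 12612 genes (0.222%). GATA1 was lower with Guide2 than with Guide1 by 1.10 (SE 0.11), and KLF1 by 0.90 (SE 0.09, adjusted p = 7.2e-07), with Guide1 libraries at 152, 134 and 150 CPM between those of Guide2 and the controls. LDB1 was lower by 0.48 and SPTB by 0.60. EPOR (-0.34, adjusted p = 0.15) and SPI1 (0.30, adjusted p = 0.066) did not pass the test of this difference.

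Of the myeloid list, 9 of 16 tested were higher with Guide2 than with Guide1 and none lower, and of the integrated stress response list 8 of 16 were lower. The test called 3.28% of all genes higher and 3.38% lower. MNDA is among the 9, at 0.201 to 0.284 CPM with Guide1. This count was not repeated without members that passed the low-count filter only through Guide2. LST1 stood at 3.54, 1.61 and 2.02 CPM with Guide1, near the controls, and differed by 2.04 (SE 0.25, adjusted p = 7.0e-06). ITGAX differed by 2.23 (SE 0.33), SLAMF6 by 1.41 (SE 0.16) and CORO1A by 1.24 (SE 0.12). H19, at 30.3, 108 and 42.5 CPM with Guide1, differed by 1.79 (SE 0.32), though replicate 2 of Guide1 was well above its group. CCDC173 was higher by 2.13 (SE 0.32), with 9.59, 20.0 and 9.5 CPM for Guide2 and 1.86 to 3.62 CPM for Guide1. Replicate 2 of Guide2 was again the extreme value. PGR, the progesterone receptor, which overlaps an antisense transcript, stood at 6.17, 6.37 and 6.32 CPM with Guide2 and at 13.1, 13.8 and 15.8 CPM with Guide1 (-1.18, SE 0.13, adjusted p = 1.7e-06). Guide1 was at the level of the matched controls, 14.3 to 17.3 CPM. BEST3 was lower by 1.32 (SE 0.28). ZBTB1, a gene singled out after its values were seen, differed by 1.42 (SE 0.14, adjusted p = 7.2e-07), and Guide1 was the low arm. It stood at 8.60, 7.55 and 7.86 CPM with Guide1, at 20.7, 26.4 and 19.3 CPM with Guide2 and at 17.1 to 22.7 CPM in the matched controls. Its difference between Guide2 and those controls was 0.14 and was not called, and antisense genes overlap it.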

How the data were processed

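Per the labels' protocols, polyA RNA from 10000 lysed K562 cells per culture was made into strand-specific libraries. The values the authors deposited are raw read counts, whole numbers for 21925 gene symbols with 1 column per library, beside RefSeq gene models on hg19, from which positions are given 1-based. TopHat2 2.0.8 with Bowtie2 2.1.0, and also SAMtools 0.1.19 and Picard, are named in the submitters' processing notes. Not given in the sources used here: which tool counted reads, whether it used strand and how it counted pairs. Overlapping and antisense genes are therefore uncertain.

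From the deposited counts, CPM were computed on totals scaled by TMM over the 24 libraries. Guide2 was tested against the 4 controls with edgeR 4.0.16 in R 4.3.3 (quasi-likelihood F test, arm as the only term, 7 libraries). Genes were kept by edgeR's filter (minimum count 10, minimum total 15), and p-values were Benjamini-Hochberg adjusted over all genes tested, with calls under 0.05. Guide2 was tested against Guide1 in 1 model of all 24 libraries with a coefficient per sgRNA, NC-Guide3 and NC-Guide4 each split at replicate 1. The script was tested on simulated counts. Alternatives were DESeq2 1.42.0, median-of-ratios scaling, other filters, thinning to 4290343 counts, other control sets, a replicate block and leaving out each library.

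The sgRNA, the control libraries, the 34 gene lists and the tests were chosen with earlier results of these data known. Named genes were GATA1, HDAC6, called genes within 1 Mb of GATA1, the 12 largest rises and falls and 5 smallest p per direction (at least 5 CPM, no overlap, called again without Guide2 replicate 2), up to 4 called members per list (at least 1 CPM), and the 5 largest differences from Guide1 in each direction. Other list members with values, and ZBTB1, were added after their values were seen. Entries whose symbol had become a date stayed in the fits without being named. A few genes that the naming rule or the lists hold are not reported here. Lists not described in the text gave, of members tested, 1 rise among 13 histone genes, 3 rises and 1 fall among 10 imprinted genes, 3 falls among 14 autophagy genes, 1 rise and 2 falls among 14 apoptosis genes, and no call among 4 metallothionein and zinc genes.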

Additional observations from a re-analysis of the deposited data

Results flagged for a closer look

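For each of 133 genes of the text, the highest and the lowest of the 4 matched controls were set against the other 3. In 7 genes 1 library lay far from the others, and chance alone flags about 1 in 20 such groups. NC-Guide3 replicate 3 was the highest for ANKRD33, at 59.1 CPM against 27.2 to 27.8 CPM, and for FTSJ1, at 69.5 CPM against 65.5 to 66.0 CPM. It was the lowest for SSX6, at 4.0 CPM against 5.26 to 5.52 CPM. NC-Guide4 replicate 2 was the highest for MMRN2, at 6.56 CPM against 2.25 to 2.92 CPM, and for STEAP3, at 52.0 CPM against 46.4 to 47.2 CPM, and the lowest for LYZ, at 62.1 CPM against 75.8 to 78.6 CPM. NC-Guide3 replicate 2 was the highest for GARS, at 454 CPM against 405 to 412 CPM.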

How the results depend on the processing

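The count of genes called against the 4 matched controls, 1635, stayed within 1.5 times under DESeq2 (1772), median-of-ratios scaling, both filters, thinning (1138), all 24 libraries (2252) and all 12 controls (1905). It was 2960 against the other 8 controls and 1065 with a replicate block. Leaving out 1 library gave 957 to 2006 calls: the lowest was without Guide2 replicate 1, followed by 1026 without NC-Guide3 replicate 2. Against Guide1 the count of 876 became 583 in the 6 libraries alone and 439 with a replicate block there, and leaving out 1 library gave 417 (without Guide1 replicate 1) to 782, with 473 without Guide1 replicate 3 and 568 without Guide2 replicate 1. The cause of these changes was not tested, apart from the fewer libraries in some fits. The replicate numbers pair no samples by the labels, and same-numbered targeted and control libraries had correlations of deviations of 0.126, -0.0742, -0.0129 and -0.0238. The GATA1 level with Guide2 was 53.1 ± 9.66 CPM (SD, n = 3) and 53.1 under the other scaling. Of the called or newly called genes in the text, 8 changed direction, all against the other 8 controls: ANKRD33 (0.74), TCN1 (0.38), LRRTM1 (0.35), SNHG6 (0.053), GATA2 (0.30), LMO2 (-0.24), KEL (-0.28) and RHAG (-0.27). Depth limits the low values: 6.17% of genes with a mean under 1 CPM were called, with a median SE of 0.44, against 15.8% over 100 CPM, with 0.08.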
